A study of Homo sapiens with 6 samples.

Results

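The genes described here encode collagens, laminin chains and other proteins of the extracellular matrix, together with syndecans, which bind matrix at the cell surface. They are a fixed list of 48 gene symbols, and a gene was measured where at least 1 probe set of the array carried that symbol alone. This gave 46 of the 48 genes, with 160 probe sets, among 18132 genes tested in all, and LAMA3 and COL17A1 are not analysed here.

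RNA came from 3 samples given a lentivirus with a short hairpin RNA (shRNA) against SHCBP1 and from 3 samples given a lentivirus with a control shRNA. Each sample was hybridised to its own Affymetrix array. The titles and characteristics give the line TPC-1, established from a human papillary thyroid carcinoma, but the extraction text names DLD1, a colorectal carcinoma line. The labels name a single shRNA against SHCBP1, describe no selection or time after infection, and do not say that the samples came from separate cultures. The p-values here set a difference between groups against the spread among the 3 samples of each group, moderated over all genes. That spread may be a technical one.

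Collagens are built from 3 intertwined chains, and in some types, such as type IV, the chains come from different genes. Type IV collagen and laminins each form a sheet-like network in the basement membrane under epithelial cells, and nidogens and the proteoglycan perlecan tie these networks together. Laminins are cross-shaped trimers of an alpha, a beta and a gamma chain. Fibrillar collagens such as types I, III and V are made mainly by fibroblasts, and matricellular glycoproteins such as thrombospondin 1 and tenascin C mostly modulate adhesion rather than build structure.

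The values are log2 signals from which the median of that probe set across the 6 arrays had been taken away, and a gene's value is the mean of its probe sets. A value therefore compares arrays and holds no level, so neither the cell line nor whether a matrix gene was expressed could be checked from it. SHCBP1 itself (Entrez Gene 79801) was at -0.95, -0.76 and -0.72 on the SHCBP1 shRNA arrays, against 0.72, 0.76 and 0.71 on the control shRNA arrays, a log2 difference of -1.54 ± 0.06 (SE, n = 3 arrays per group). Of 7 thyroid markers tested 1 was higher, FOXE1 at 0.24, and of 7 colon epithelium markers 2 were, LGR5 at 0.58 and CDX2 at 0.12, with FOXE1 and CDX2 below 0 after the spike-in scaling described next. CDX2 was not called without SHCBP1 shRNA replicate 2 or 3, or control shRNA replicate 1 (limma, adjusted p from 0.0507 to 0.0653). None of 6 fibroblast, 4 endothelial and 3 leukocyte markers passed limma's test, and the counts at an unadjusted p under 0.05 were 0, 0 and 1. Over all genes 41% passed the test, and 8591 of 18132 had an unadjusted p under 0.05. The poly-A spike-in controls were higher on the SHCBP1 shRNA arrays by 0.43 ± 0.04 log2 (SE). Every difference below is hence one against the bulk of the measured genes. Scaling to those controls gave 441 genes higher and 16268 lower, against 3992 higher and 3448 lower without it, and among the matrix genes it gave 2 higher and 42 lower.

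Of the 46 matrix genes 11 (23.9%) differed between the SHCBP1 shRNA and the control shRNA arrays, 5 higher and 6 lower with the SHCBP1 shRNA, where 41% of all genes tested did (22% higher, 19% lower). Fewer cells of a kind and less RNA per cell cannot be told apart in these bulk samples. A difference was called at a Benjamini-Hochberg adjusted p under 0.05 over all genes, from limma's moderated test. The higher genes were LAMC1, THBS1, LAMB2, COL15A1 and TNC, and the lower ones COL4A2, COL13A1, COL18A1, LAMB1, LAMA5 and LAMB3. With scaling to the spike-in controls LAMB2, COL15A1 and TNC lay below 0 instead. The median difference was 0.0087 log2 over the matrix genes and 0.022 over all genes, and the median size in either direction was 0.093 over the matrix genes and 0.108 over all genes. The 2 groups of arrays did not overlap for 21 of the 46 (45.7%), beside 50% of all genes. An unadjusted p under 0.05 was reached by 18 of the 46, beside 8591 of all 18132 genes.

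**Figure D1:**
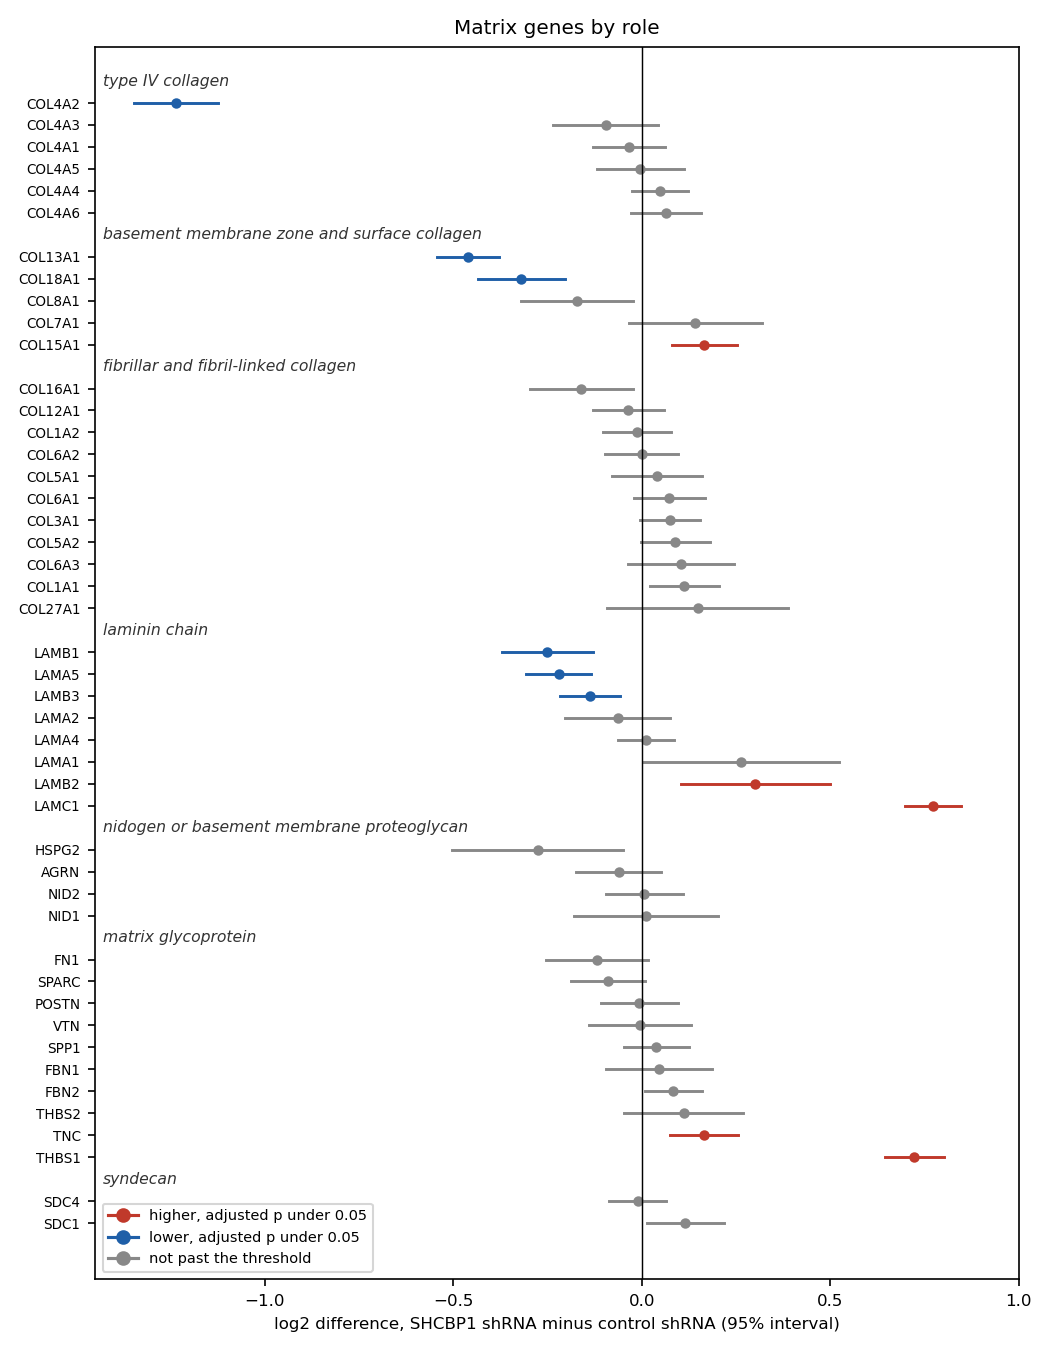
Log2 difference between SHCBP1 shRNA and control shRNA arrays for each of the 46 matrix genes (horizontal axis), with its 95% interval from limma (n = 3 arrays per group), grouped by role down the page. COL4A2 lies at -1.24, LAMC1 at 0.77 and THBS1 at 0.72, and the 35 grey genes that were not called lie between -0.28 and 0.26. With spike-in scaling each point moves by -0.43, which puts LAMB2, COL15A1 and TNC below 0.

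COL4A2, which encodes the alpha-2 chain of type IV collagen, showed the largest difference of the 46. Its centred log2 values were -0.58, -0.61 and -0.61 on the SHCBP1 shRNA arrays, against 0.72, 0.55 and 0.64 on the control shRNA arrays. The groups lay far apart and the spread within each was small (SD 0.018 and 0.085). COL4A2 thus fell 2.36-fold, a log2 difference of -1.24 ± 0.05 (SE, 95% interval -1.35 to -1.12; limma, adjusted p = 1.79e-06). It was the only 1 of the 46 past a 2-fold change, a size that 1.22% of all genes passed with the same test. All 3 of its probe sets fell, with log2 differences of -1.42, -1.27 and -1.01.

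COL4A1, which encodes the alpha-1 chain that pairs with alpha-2 in most basement membranes, was not called. Its values were -0.0037, 0.055 and -0.041 on the SHCBP1 shRNA arrays, against 0.084, 0.030 and -0.0039 on the control shRNA arrays, so the groups overlapped. The log2 difference was -0.033 ± 0.041 (SE, 95% interval -0.13 to 0.063; limma, adjusted p = 0.585). Its 3 probe sets lay between -0.13 and 0.039, and none was called. The value of COL4A2 minus COL4A1 on each array was -0.57, -0.66 and -0.57 in the SHCBP1 shRNA group, against 0.64, 0.52 and 0.64 in the control shRNA group. These 2 sets of values differed by -1.20 ± 0.05 (SE), given without a test because the pair was picked with its values known.

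COL4A1 and COL4A2 lie head to head on chromosome 13 and are transcribed away from each other, COL4A1 on the minus strand and COL4A2 on the plus strand. The RefSeq starts of the 2 genes (GRCh38.p14) are separated by 126 bases, so this stretch lies immediately upstream of both. It is shown because a fall was called for COL4A2 and not for COL4A1. It spans chr13:110307158-110307283 and is written 5′ to 3′ on the plus strand, with a CCAAT box (CCAAT) and a GC box (GGGCGG) in capitals.
COL4A1-COL4A2: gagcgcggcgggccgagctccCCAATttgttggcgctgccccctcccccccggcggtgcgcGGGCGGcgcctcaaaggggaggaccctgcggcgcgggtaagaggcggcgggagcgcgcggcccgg
Both of these motifs were searched on both strands, so the reverse complement counted too, and each matched once. Of 35116 RefSeq promoter windows, 21.1% held a CCAAT box and 34.6% a GC box in the 126 bases before the start. The stretch is 80.2% G and C. A match describes the letters and does not show that a factor binds there.

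The other 4 type IV chains are encoded by 2 more head-to-head pairs, COL4A4 and COL4A3 on chromosome 2, with 418 bases between the starts, and COL4A6 and COL4A5 on chromosome X, with 379 bases from the nearer COL4A6 start. The alpha-3, alpha-4 and alpha-5 chains together form the network of the kidney glomerulus. None of the 4 was called. COL4A3 was at -0.034, 0.0051 and 0.023 on the SHCBP1 shRNA arrays and at 0.072, 0.22 and -0.011 on the control shRNA arrays. These groups overlapped. The differences were -0.10 ± 0.06 for COL4A3, 0.048 ± 0.032 for COL4A4, -0.0040 ± 0.0494 for COL4A5 and 0.064 ± 0.040 for COL4A6 (log2, SE; limma, adjusted p from 0.259 to 0.964). The 95% intervals of these genes and COL4A1 reached from -0.23 to 0.16, so a change of signal of the size seen for COL4A2 lay outside each of them. Whether these chains were expressed could not be checked. With spike-in scaling each was called lower, COL4A1 at -0.47, COL4A3 at -0.53, COL4A4 at -0.39, COL4A5 at -0.44 and COL4A6 at -0.37. COL4A2 then lay at -1.67.

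**Figure D2:**
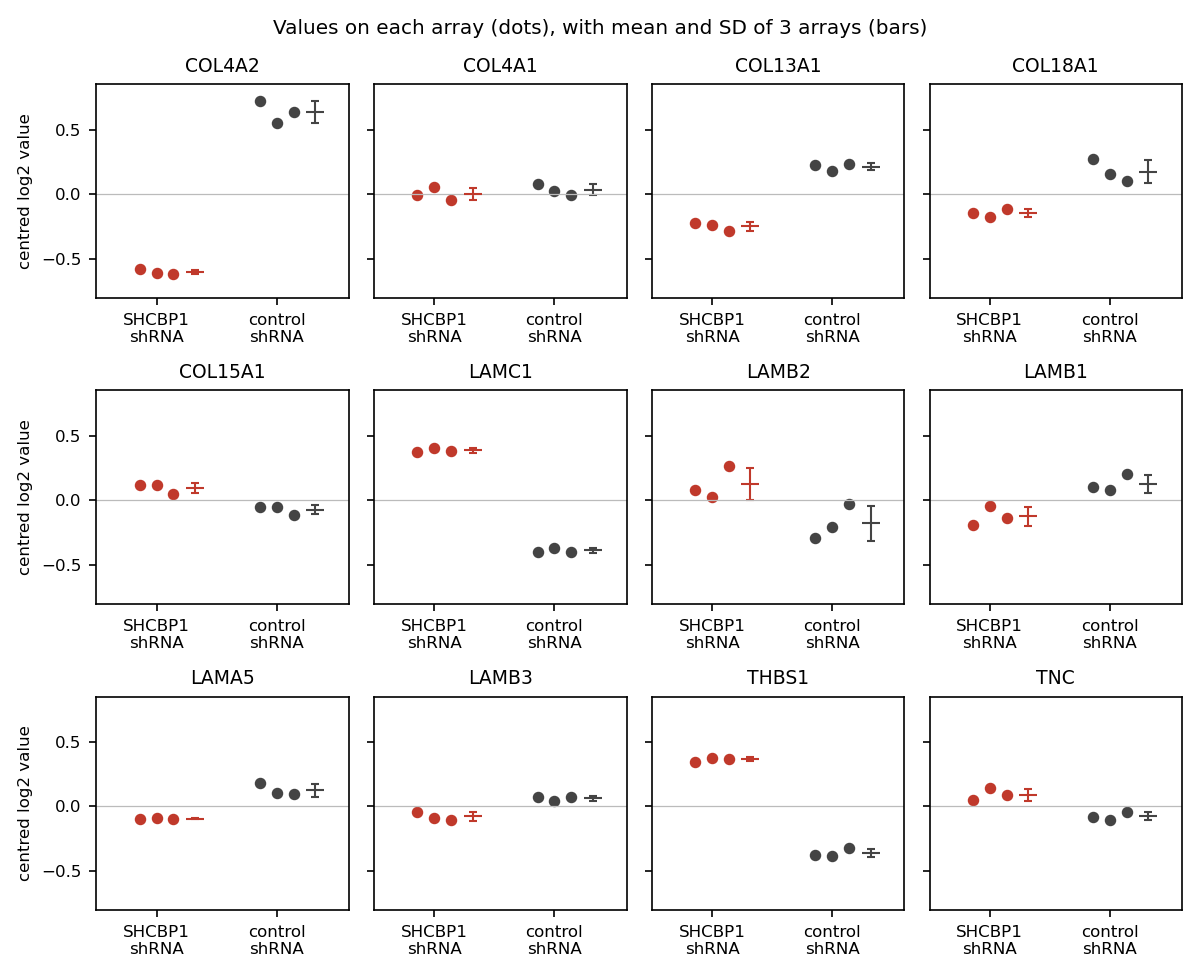
Centred log2 value of 12 matrix genes on each of the 3 SHCBP1 shRNA arrays (red, left) and 3 control shRNA arrays (grey, right), with the mean and SD of each group beside the dots. The groups of COL4A2 lie farthest apart, those of its partner chain COL4A1 overlap, and LAMC1 and THBS1 have the 2 largest rises. With spike-in scaling LAMB2, COL15A1 and TNC lie lower in the SHCBP1 shRNA group.

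Of 5 collagens of the basement membrane zone and the cell surface 2 were lower and 1 higher with the SHCBP1 shRNA, beside 41% of all genes called. COL13A1, which encodes a transmembrane collagen found at adhesion sites and at the neuromuscular junction, was at -0.22, -0.24 and -0.29 on the SHCBP1 shRNA arrays, against 0.23, 0.18 and 0.23 on the control shRNA arrays. The groups were well separated. It fell by 0.46 ± 0.04 on the log2 scale (SE; limma, adjusted p = 3.40e-05), and its 4 probe sets each fell, by 0.40 to 0.61.

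COL18A1 encodes the basement membrane collagen whose C-terminal fragment is endostatin, an inhibitor of blood vessel growth. Its values were -0.14, -0.17 and -0.11 on the SHCBP1 shRNA arrays, against 0.27, 0.16 and 0.10 on the control shRNA arrays. The control values were the more spread (SD 0.086, against 0.030 in the SHCBP1 shRNA group), but all lay above the SHCBP1 shRNA values. It fell by 0.32 ± 0.05 (log2, SE; limma, adjusted p = 0.00127), and both probe sets fell, by 0.35 and 0.29.

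COL15A1, which encodes the close relative of type XVIII collagen, was at 0.12, 0.12 and 0.050 on the SHCBP1 shRNA arrays, against -0.050, -0.053 and -0.11 on the control shRNA arrays. The groups did not overlap. It rose by 0.17 ± 0.04 (log2, SE; limma, adjusted p = 0.00853), and with spike-in scaling it lay at -0.27. COL15A1 has a single probe set (suffix _s_at, the mark for probes shared between transcripts or genes). COL7A1, the collagen of the anchoring fibrils of skin, lay at 0.14 ± 0.08 and COL8A1, a short-chain collagen of vessel walls and of Descemet's membrane in the eye, at -0.17 ± 0.06, and neither was called (log2, SE; limma, adjusted p = 0.188 and 0.0652). COL8A1 was called with arrays centred (limma, adjusted p = 0.0447), with the replicate block (0.0246) and with the _s_at and _x_at probe sets left aside (0.0378).

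Among the fibrillar collagens and those that attach to or run beside fibrils, limma called 0 of 11, beside 41% of all genes. An unadjusted p under 0.05 was reached by 2 of the 11, beside 8591 of all 18132 genes. The 2 were COL1A1, at 0.11 ± 0.04, and COL16A1, at -0.16 ± 0.06 (log2, SE; limma, adjusted p = 0.0535 and 0.0635). COL16A1 was called with arrays centred (limma, adjusted p = 0.0478) and with array weights (0.0440). The 95% intervals of the 5 chains of types I, III and V reached from -0.10 to 0.20, and those of the 3 chains of type VI, which forms beaded filaments, from -0.096 to 0.24. COL1A1 was at 0.063, 0.13 and 0.030 on the SHCBP1 shRNA arrays and at -0.0077, -0.045 and -0.062 on the control shRNA arrays, which do not overlap. Its probe sets were not of one kind, since 2 of the 5 were called higher, at 0.44 and 0.32, while the other 3 lay between -0.093 and -0.047. With the _s_at and _x_at probe sets left aside, COL1A1 (0.15; limma, adjusted p = 0.0200) and COL3A1 (0.14; limma, adjusted p = 0.0210) were called. Apart from COL1A1 and COL16A1, the genes of this group, with COL12A1 lowest and COL27A1 highest among them, lay between -0.035 and 0.15. COL27A1, with 1 probe set, had wide groups: 0.25, -0.10 and 0.11 on the SHCBP1 shRNA arrays and 0.10, -0.15 and -0.13 on the control shRNA arrays.

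Of the 8 laminin chains 2 were higher and 3 lower with the SHCBP1 shRNA, a share of 62.5% beside 41% of all genes, and this difference in shares was not tested. LAMC1 encodes gamma-1, the gamma chain of most laminins. Its values were 0.37, 0.41 and 0.38 on the SHCBP1 shRNA arrays, against -0.40, -0.37 and -0.40 on the control shRNA arrays. The SD was 0.018 within either group, far below the gap between them. LAMC1 rose 1.71-fold, a log2 difference of 0.77 ± 0.03 (SE, 95% interval 0.70 to 0.85; limma, adjusted p = 2.10e-06), and 0.34 remained with spike-in scaling. All 5 of its probe sets rose, but by unequal amounts: 0.29, 0.62, 0.88, 0.98 and 1.09 on the log2 scale.

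The alpha and beta chains that join gamma-1 in laminin-511, alpha-5 and beta-1, went the other way. LAMA5 was at -0.096, -0.090 and -0.098 on the SHCBP1 shRNA arrays, against 0.18, 0.10 and 0.094 on the control shRNA arrays, and fell by 0.22 ± 0.04 (log2, SE; limma, adjusted p = 0.00187). Of its 2 probe sets 1 fell by 0.39 and the other, at -0.056, was not called. LAMB1 was at -0.19, -0.041 and -0.14 on the SHCBP1 shRNA arrays, against 0.10, 0.078 and 0.20 on the control shRNA arrays, and fell by 0.25 ± 0.05 (log2, SE; limma, adjusted p = 0.00593). Of the 2 probe sets of LAMB1 1 was called, at -0.29, and the other, at -0.21, was not. For both genes each SHCBP1 shRNA value lay below each control shRNA value. LAMC1 minus LAMB1 on each array averaged 0.51 in the SHCBP1 shRNA group and -0.51 in the control shRNA group, a difference of 1.02 ± 0.06 (SE), and LAMC1 minus LAMA5 averaged 0.48 in the SHCBP1 shRNA group and -0.51 in the control shRNA group, a difference of 0.99 ± 0.03 (SE). These pairs too were picked with their values known, and no test is given for them.

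LAMB2 encodes beta-2, which takes the place of beta-1 in laminins of the glomerulus, vessels and synapses. Its values were 0.083, 0.027 and 0.27 on the SHCBP1 shRNA arrays, against -0.29, -0.21 and -0.027 on the control shRNA arrays. The groups did not overlap, but their edges, 0.027 and -0.027, lay close together. It rose by 0.30 ± 0.08 (log2, SE; limma, adjusted p = 0.0233) from 1 probe set, and with spike-in scaling it lay at -0.13. This call was lost without control shRNA replicate 1 (limma, adjusted p = 0.0718), without control shRNA replicate 2 (0.0756) and without SHCBP1 shRNA replicate 3 (0.0626).

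LAMB3, the beta chain of laminin-332 at the base of the epidermis and other epithelia, was at -0.039, -0.085 and -0.10 on the SHCBP1 shRNA arrays, against 0.074, 0.040 and 0.073 on the control shRNA arrays. The groups did not overlap. It fell by 0.14 ± 0.03 (log2, SE; limma, adjusted p = 0.0132), the smallest of the 11 called differences, and missed the threshold without SHCBP1 shRNA replicate 3 (limma, adjusted p = 0.0504). Of its 2 probe sets 1 was called, at -0.19, and the other, at -0.084, was not. LAMA1, the alpha chain of the embryonic laminin-111, lay at 0.26 ± 0.11, LAMA2, the alpha chain of muscle, at -0.064 ± 0.060, and LAMA4, the alpha chain of vessel walls, at 0.011 ± 0.032 (log2, SE), and limma called none of these 3 (adjusted p from 0.100 to 0.834). The SHCBP1 shRNA arrays of LAMA1 were spread from -0.016 to 0.42.

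The proteins that join the laminin and collagen IV networks, or coat them with heparan sulfate, gave 0 calls in 4 by limma. This stands beside 41% of all genes called, and 1 of the 4 had an unadjusted p under 0.05. The nidogen genes NID1 and NID2 lay at 0.011 ± 0.081 and 0.0068 ± 0.0436 (log2, SE). HSPG2, which encodes perlecan, was at -0.36, -0.11 and 0.044 on the SHCBP1 shRNA arrays, against 0.22, 0.11 and 0.082 on the control shRNA arrays. Its SHCBP1 shRNA values were widely spread (SD 0.20), and the difference of -0.28 ± 0.10 did not pass (log2, SE; limma, adjusted p = 0.0559), though it did with arrays centred (limma, adjusted p = 0.0460). With the _s_at and _x_at probe sets left aside HSPG2 lay at -0.075 and was not called (limma, adjusted p = 0.717). The 2 probe sets of HSPG2 stood at -0.48 (suffix _x_at), which was called, and -0.075. Those of AGRN, which encodes agrin, the organiser of the neuromuscular junction, pointed in opposite directions, -0.33 (called) and 0.20 (not called).

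Of 10 glycoproteins of the interstitial matrix 2 were higher and 0 lower, with limma (20% called, beside 41% of all genes), and 3 had an unadjusted p under 0.05. THBS1 encodes thrombospondin 1, a matricellular protein that inhibits blood vessel growth and activates latent TGF-beta. It was at 0.35, 0.38 and 0.37 on the SHCBP1 shRNA arrays, against -0.38, -0.38 and -0.32 on the control shRNA arrays. Both groups were tight (SD 0.015 and 0.032). THBS1 rose 1.65-fold, a log2 difference of 0.72 ± 0.03 (SE, 95% interval 0.65 to 0.80; limma, adjusted p = 3.50e-06), and 0.29 remained with spike-in scaling. Of its 5 probe sets 4 rose, by 0.40, 0.92, 1.09 and 1.13, and 1 at 0.075 was not called.

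THBS2, which encodes the related thrombospondin 2, was at 0.091, 0.018 and -0.083 on the SHCBP1 shRNA arrays and at -0.22, 0.0028 and -0.091 on the control shRNA arrays, and was not called (limma, adjusted p = 0.246). TNC encodes tenascin C, an anti-adhesive protein of wounds and tumour stroma. It was at 0.048, 0.14 and 0.087 on the SHCBP1 shRNA arrays, against -0.079, -0.10 and -0.039 on the control shRNA arrays. The groups did not overlap. TNC rose by 0.17 ± 0.04 (log2, SE; limma, adjusted p = 0.0101), and with spike-in scaling it lay at -0.27. Of its 4 probe sets 1 was called, at 0.37, and the others lay between 0.075 and 0.11.

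The promoter stretches of LAMC1 and THBS1 are shown because these genes had the largest rises of the 46, of about equal size. Each holds the 250 bases before the RefSeq start (GRCh38.p14), 5′ to 3′ on the plus strand, where both genes lie. LAMC1 is at chr1:183023170-183023419 and THBS1 at chr15:39580829-39581078. Capitals mark GC boxes and CCAAT boxes, with the letters given above, and the motif of TEAD factors, GGAATG, each on either strand.
LAMC1: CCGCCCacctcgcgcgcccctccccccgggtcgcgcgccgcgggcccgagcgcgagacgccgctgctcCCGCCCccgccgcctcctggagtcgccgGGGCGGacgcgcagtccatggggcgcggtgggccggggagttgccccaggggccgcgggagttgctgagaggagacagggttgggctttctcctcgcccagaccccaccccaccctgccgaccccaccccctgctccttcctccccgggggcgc
THBS1: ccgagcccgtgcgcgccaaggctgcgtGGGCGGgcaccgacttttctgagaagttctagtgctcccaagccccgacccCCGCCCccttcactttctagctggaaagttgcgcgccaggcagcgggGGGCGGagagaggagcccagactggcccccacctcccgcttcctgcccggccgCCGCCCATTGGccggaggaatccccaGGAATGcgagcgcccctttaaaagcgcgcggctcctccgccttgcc
LAMC1 had 3 GC boxes and no match to the other motifs, and THBS1 had 4 GC boxes, 1 CCAAT box next to the last of them and 1 TEAD motif, with no overlap between motifs. In windows of this length, 42.6% of all 35116 promoters held a GC box, 32% a CCAAT box and 11.9% the TEAD motif. The TEAD motif was also searched in the COL4A1-COL4A2 stretch and had 0 matches there. In windows of 126 bases 5.89% of promoters held it.

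FN1, which encodes fibronectin, the main ligand of integrin alpha-5 beta-1, was at -0.0088, -0.062 and -0.13 on the SHCBP1 shRNA arrays and at 0.027, 0.16 and -0.033 on the control shRNA arrays. The groups overlapped and the difference of -0.12 ± 0.06 did not pass (log2, SE; limma, adjusted p = 0.152). Of its 8 probe sets 1 was called, at -0.34, and with the _s_at and _x_at probe sets left aside FN1 was called at -0.19 (limma, adjusted p = 0.00995). SPARC, which encodes a collagen-binding matricellular protein, lay at -0.090 ± 0.042, with 1 of 8 probe sets called, at -0.23. SPP1 (osteopontin), POSTN (periostin), VTN (vitronectin) and FBN1 (fibrillin 1) lay between -0.0067 and 0.045, and FBN2 (fibrillin 2) at 0.083 ± 0.032 (log2, SE; limma, adjusted p = 0.0796).

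Neither syndecan was called by limma, beside 41% of all genes, and 1 had an unadjusted p under 0.05. SDC1, the main syndecan of epithelial cells, lay at 0.12 ± 0.04, with 1 of its 3 probe sets called, at 0.35, and the others at -0.050 and 0.047. SDC4, which sits in focal adhesions, lay at -0.010 ± 0.032 (log2, SE; limma, adjusted p = 0.842), and its 3 probe sets lay between -0.061 and 0.073.

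**Figure D3:**
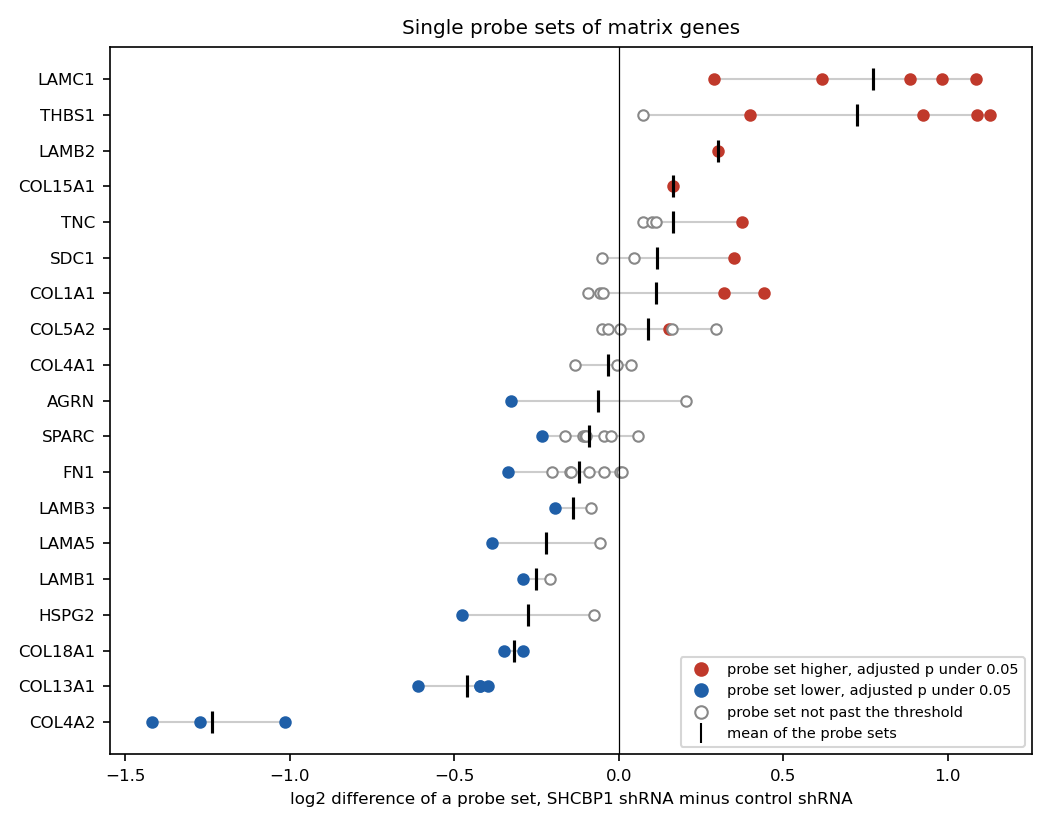
Log2 difference between SHCBP1 shRNA and control shRNA arrays for single probe sets of the 18 matrix genes with at least 1 called probe set, and of COL4A1. Filled dots were called by limma (adjusted p under 0.05 over all probe sets), open dots were not, and the bar is the mean used for the gene. The probe sets of COL4A2 lie between -1.42 and -1.01, while those of THBS1 spread from 0.075 to 1.13.

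Tested singly, 32 of the 160 probe sets (20%) were called, 16 higher and 16 lower, where 38% of all probe sets on the array other than controls were. They belong to 18 genes, the 11 above and 7 whose mean was not called: AGRN, COL1A1, COL5A2, FN1, HSPG2, SDC1 and SPARC. For each of the 11 called genes all probe sets lay on the same side of 0. For COL5A2, which encodes a chain of type V collagen, the called probe set stood at 0.15 and the 6 ranged from -0.051 to 0.30.

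For the 35 matrix genes that were not called, the intervals bound a change of signal against the bulk of the measured genes. With spike-in scaling 34 of the 35 were called lower. The values hold no level, so for a gene with signal at background an interval does not bound a change of its RNA. The 95% interval lay within 0.25 log2 of 0 for 27 of the 35 genes and within 0.5 for 33. The exceptions to the wider limit were LAMA1, whose interval reached 0.52, and HSPG2, whose interval reached -0.50. Leaving out SHCBP1 shRNA replicate 3 brought HSPG2 (-0.37), COL7A1 (0.23), LAMA1 (0.36), LAMA2 (-0.13) and COL1A1 (0.14) past limma's threshold. COL8A1 passed it without control shRNA replicate 1 (-0.22) or SHCBP1 shRNA replicate 2 (-0.21), COL16A1 without control shRNA replicate 2 (-0.22), and SDC1 without SHCBP1 shRNA replicate 1 (0.14) or control shRNA replicate 3 (0.15).

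**Figure D4:**
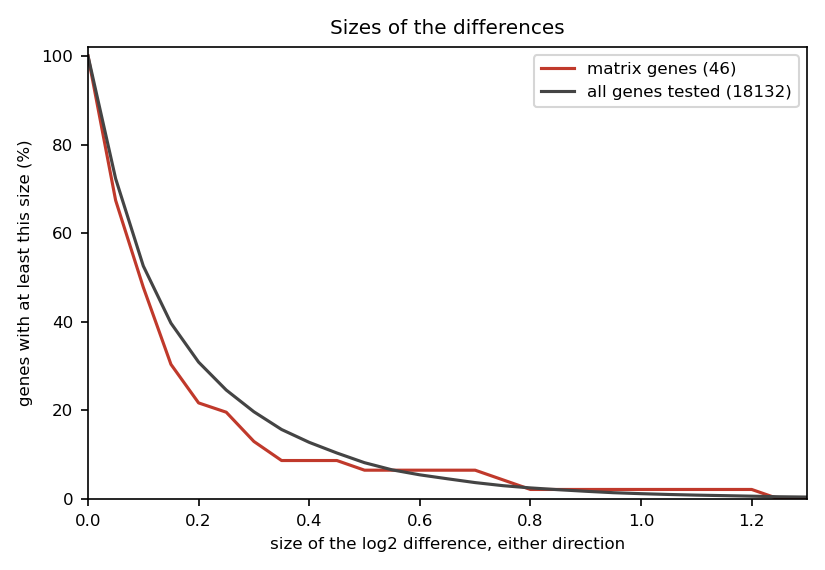
Percent of genes (vertical axis) whose log2 difference between SHCBP1 shRNA and control shRNA arrays has at least the size on the horizontal axis, in either direction, for the 46 matrix genes and for all 18132 genes tested. At a size of 0.2 the shares were 21.7% and 30.9%, and at 0.5 they were 6.52% and 8.21%.

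The same fit was read for 4 lists of other matrix genes. Of 21 other collagens and laminins 3 were higher and 0 lower (14.3% called, and 5 at an unadjusted p under 0.05). The higher ones were COL28A1 (0.32), COL23A1 (0.26) and COL9A2 (0.13), each from 1 probe set, with adjusted p from limma of 0.0451, 0.0350 and 0.0496, and all 3 lay below 0 with spike-in scaling. COL28A1 was not called without control shRNA replicate 1, 2 or 3 (limma, adjusted p from 0.0518 to 0.130), and it lay at 0.19 without SHCBP1 shRNA replicate 3. It also lost its call with repeated quantile normalization (limma, adjusted p = 0.0696), centring (0.0523), array weights (0.0523) and the replicate block (0.0584). COL23A1 was not called without any array but SHCBP1 shRNA replicate 2 (limma, adjusted p from 0.0525 to 0.107), and it lay at 0.17 without SHCBP1 shRNA replicate 1. COL9A2 was not called without any array but control shRNA replicate 2 (limma, adjusted p from 0.0667 to 0.151). It also lost its call with repeated quantile normalization, centring, robust moderation, the replicate block, the median of probe sets and the _s_at and _x_at probe sets left aside (limma, adjusted p from 0.0517 to 0.0964). Of 41 other matrix glycoproteins and proteoglycans 2 were higher and 5 lower (17.1% called). LTBP1 and LTBP2, which encode proteins that hold latent TGF-beta in the matrix or bind fibrillin, fell by 0.59 and 0.28 on the log2 scale, and GPC1, a lipid-anchored proteoglycan of the cell surface, fell by 0.28. LTBP2 was not called without SHCBP1 shRNA replicate 1 or 2, or control shRNA replicate 2 or 3 (limma, adjusted p from 0.0771 to 0.0876). TGFBI, a TGF-beta-induced adhesion protein, rose by 0.28 and lay at -0.16 with spike-in scaling.

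Of 22 cell-surface receptors for matrix 2 were higher and 10 lower (54.5% called), with a median of -0.043 log2. The integrin chain genes ITGB5, ITGA6 and ITGB1 fell, with log2 differences of -1.59, -1.14 and -0.75, and so did CD47, which encodes a receptor of thrombospondin 1, at -0.81. ITGA6 with ITGB1 forms a laminin receptor. The probe sets of CD47 ranged from -1.32 to -0.031 and those of ITGB1 from -1.10 to 0.035. Genes that fold, modify or export collagen were called in 18 of 25 cases (72%), with 6 higher and 12 lower and a median of -0.15. The lysyl hydroxylase gene PLOD2 rose by 0.98, while the coat genes SEC13 and SEC24D of vesicles leaving the endoplasmic reticulum fell by 0.77 and 0.55, and PPIB, a prolyl isomerase that acts on procollagen, by 0.51. SEC13 lay at 0.11 with the _s_at and _x_at probe sets left aside, and its 4 probe sets ranged from -1.09 to 0.11. The shares of calls in these lists stand beside 41% of all genes, and no difference between the lists was tested.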

How the data were processed

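RNA from 3 SHCBP1 shRNA and 3 control shRNA samples was measured on 6 arrays, grouped by sample title. The authors deposited 1 log2 value per probe set and array, made with RMA per the submitters' processing notes. No source gives the log base, and the usual scale of RMA was assumed. The deposited values are centred to a median of 0 for each probe set, a step not given in the sources used here. No brightness or background is left, so no filter on dim genes was possible. RMA's quantile step would remove a shift of all genes.

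Of 49395 probe sets, 102 were controls, 44988 carried 1 gene symbol, 1832 several and 2473 none in the platform annotation. By Entrez number 44961 of those with 1 symbol matched RefSeq (GRCh38.p14). Probe sets with 1 symbol were averaged per gene. No probe set with several symbols named a matrix gene. Of the 46 genes, 7 have 1 probe set, and 52 of the 160 probe sets end in _s_at or _x_at.

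limma 3.58.1 in R 4.3.3 (lmFit, eBayes) gave the SHCBP1 shRNA minus control shRNA difference of each gene, without pairing, and p-values were adjusted by Benjamini-Hochberg over the 18132 genes. Errors after ± are moderated standard errors, and for pairs of chains and spike-in controls they come from the variances of the 2 groups. Single probe sets were fitted over all 49293 that are not controls. Promoter sequences are from RefSeq tables, which matched 40 of the 48 symbols.

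Every matrix gene is accounted for, with values on each array for those called, and up to 4 genes with the largest called change are named per related list. The members and lists were chosen with earlier results of these data known. On simulated data with 18132 genes, 67, 67 and 66 genes were changed by 0.25, 0.5 and 1 log2. Of these 50.7%, 88.1% and 97% were recovered, and 5 of 162 calls fell on unchanged genes. In the real data 41% of genes were called, so the adjustment sets another cut-off on p and these rates do not carry over. The SD of differences between arrays was 0.131 to 0.14 within groups and 0.345 to 0.352 between them, and no array repeated another. The number of arrays limits the precision.

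The alternatives were repeated quantile normalization, centring of arrays, spike-in scaling, array weights, robust moderation, the replicate number as a block, the median of probe sets, leaving out _s_at and _x_at probe sets, leaving out each array, testing single probe sets and a minimum size. The repeated quantile normalization acted on the centred values, so it did not redo RMA's quantile step on signals.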

Additional observations from a re-analysis of the deposited data

How the results depend on the processing

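Of the 11 called matrix genes, each kept its direction and its call under robust moderation, array weights, centring of arrays, repeated quantile normalization, the replicate block and the median of probe sets, and so did the 10 that have a probe set not ending in _s_at or _x_at when only those were used. Spike-in scaling turned COL15A1 (-0.27), LAMB2 (-0.13) and TNC (-0.27), and among other named genes COL28A1 (-0.11), COL23A1 (-0.17), COL9A2 (-0.30), TGFBI (-0.16), FOXE1 (-0.19) and CDX2 (-0.32), since it lowers every gene by the same amount. It gave 44 matrix genes called, 2 higher and 42 lower, 147 of their probe sets and 106 genes of the 4 related lists, against 11, 32 and 40. SEC13 stood at 0.11 without _s_at and _x_at probe sets. Counting genes with a called probe set gave 18, and a minimum size of 1 left 1. With 1 array left out the matrix genes called numbered 11 to 14, their called probe sets 30 to 34 and the related genes 35 to 39. LAMB2 and LAMB3 lost their calls in 4 such fits. Calls were gained by COL8A1 (limma, adjusted p = 0.0447), COL16A1 (0.0478) and HSPG2 (0.0460) with centring, which gave 14 matrix genes called, 9 of them lower. Array weights added COL16A1 (limma, adjusted p = 0.0440), and using only the other probe sets than _s_at and _x_at added COL8A1 (0.0378), COL1A1, COL3A1 and FN1. Among the related genes COL28A1 and COL9A2 lost their calls under several settings. With the replicate block 12 matrix genes were called, COL8A1 in addition (-0.17; limma, adjusted p = 0.0246), and SHCBP1 stayed at -1.54. Same-numbered arrays did not deviate together (r = 0.018, -0.0462 and 0.0674 across genes, which are not independent), so the numbers are not taken to pair the samples. The filter on dim genes was not run, since the values hold no level.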
